A study of Mus musculus with 16 samples.

Results

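The genes described here are 42 genes of DNA replication and of entry into S phase, measured in leukemic and normal B cell precursors of the mouse. They were given as a list of names: licensing factors, helicase subunits and activators, polymerases, the sliding clamp and its loader, nucleotide enzymes, E2F factors, E cyclins and chromatin copying factors. All 42 were measured, out of 19938 genes. Each was read from the probe set that names that gene alone and has the highest mean over all arrays. RNA came from 6 Bank1+/- Pax5+/- mice with leukemia, from 6 Pax5+/- mice with leukemia, and from 4 samples of wild-type (WT) mice. The 3 groups are called Bank1/Pax5 leukemic marrow, Pax5 leukemic marrow and WT precursors below. Both leukemia groups therefore carry a heterozygous loss of Pax5, and only the first also carries a heterozygous loss of Bank1. The leukemic samples were total bone marrow, whereas the WT samples were the fraction of pro-B and pre-B cells, and the sources used here do not say how that fraction was isolated. The design text speaks of 3 WT mice, but 4 WT arrays are labelled as biological replicates and were treated as 4 samples. The mice were kept in a conventional facility and met common pathogens, and the sources used here give no age, strain or sex for them.

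Replication is licensed in G1, when the origin recognition complex, Cdc6 and Cdt1 load the Mcm helicase onto DNA. In S phase Cdc45 and the GINS complex turn the loaded helicase on, primase and the polymerases copy the strands, and the Pcna clamp, loaded by replication factor C, holds the polymerases on DNA. Many of these genes are targets of the E2F factors, which the retinoblastoma protein restrains until cyclin-dependent kinases release them. In the bone marrow, large pre-B cells divide rapidly after the pre-B cell receptor forms, and then leave the cycle as small pre-B cells. Pax5 fixes precursor cells in the B lineage, and Bank1 is a scaffold protein of B cell receptor signalling.

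The arrays had medians between 6.58 and 6.71 on the log2 scale and single values between 3.82 and 14.3. The median of the gene means was 6.97, which serves here as the level under which a gene is called dim. Correlations between arrays over all genes ran from 0.923 to 0.984 within Bank1/Pax5 leukemic marrow, from 0.958 to 0.982 within Pax5 leukemic marrow and from 0.993 to 0.997 within WT precursors. The Bank1 gene was lower in Bank1/Pax5 leukemic marrow than in Pax5 leukemic marrow by a log2 difference of -1.54 (SE 0.38, limma adjusted p = 0.0265). Its log2 level was 7.26, 8.71 and 9.52 in Bank1/Pax5 leukemic marrow (lowest, median, highest), 8.80, 10.30 and 11.09 in Pax5 leukemic marrow, and averaged 9.17 ± 0.12 in WT precursors (SD, n = 4). Against WT precursors Bank1 differed by -0.53 in Bank1/Pax5 leukemic marrow (limma adjusted p = 0.404) and by 1.01 in Pax5 leukemic marrow (limma adjusted p = 0.0964), so neither passed. Pax5 itself passed the test in none of the 3 comparisons. Pro-B and pre-B markers were high in the WT samples, at median levels of 12.21 to 12.37, which goes with their labelled fraction, although their cell type label also speaks of leukemic cells. The same markers ran from 8.09 to 11.81 in Bank1/Pax5 leukemic marrow and from 7.44 to 11.98 in Pax5 leukemic marrow, so not every leukemic sample was rich in them.

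Promoter windows of 250 bases before to 50 bases after the start of transcription were taken from RefSeq (mouse build GRCm38.p6) and searched for 4 E2F motifs of 8 letters, TTTCCCGC, TTTGGCGC, TTTCGCGC and TTTGCCGC, on either strand and with overlaps allowed. Of the 36 listed genes with a window, 15 held such a motif (41.7%), against 543 of 15614 genes measured in all (3.48%). These 15 were Orc1, Cdc6, Cdt1, Mcm3, Mcm5, Mcm6, Mcm7, Gins3, Pola1, Pole2, Pold1, Rfc3, Lig1, E2f2 and Uhrf1. The shorter core TTCCCGC or TTGGCGC was found in 21 of the 36 genes (58.3%), against 10.7% of all genes. It lies within TTTCCCGC and TTTGGCGC only, and Orc1 held an 8-letter motif without it. For comparison, the 8-letter motif was in 1 of 22 mitosis genes with a window (4.55%) and in 9 of 37 other replication genes (24.3%). It was in 6 of 16 other G1/S regulators (37.5%), a share near that of the listed genes. The median GC content of the windows was 59.2% for the listed genes and 57.3% for all genes. A match describes letters in the window and is not evidence of binding.

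The windows below were chosen after the values were seen, with motif letters in capitals and the coding strand read 5′ to 3′. They are those of E2f2 and Rrm2, the 2 genes called, of Rfc3, a gene with non-overlapping groups, and of Mcm5 and Mcm6, as examples of overlapping motifs. Among other genes described below, Orc1 held 1 motif, and these letters were not in the windows of E2f8, Tk1 and Tyms. E2f2, of the 42 genes the one with the largest difference between either leukemia and WT precursors, is at chr4:136172024-136172323 on the plus strand and has 1 motif that begins 39 bases after the start. A second E2f2 window holds none of the motifs. Mcm6, a helicase subunit, is at chr1:128359656-128359955 on the minus strand and has motifs whose first bases lie at -110, -106 and -47 from the start, the first 2 of which overlap. Mcm5, another helicase subunit, is at chr8:75109259-75109558 on the plus strand and has 2 overlapping motifs, with first bases at -153 and -149. Rfc3, a clamp loader subunit, is at chr5:151651159-151651458 on the minus strand, with motifs whose first bases lie at -10 and at 0. Rrm2, the other gene called lower in a leukemia, is at chr12:24708004-24708303 on the plus strand and is shown for contrast, since these letters are not in its window.
E2f2: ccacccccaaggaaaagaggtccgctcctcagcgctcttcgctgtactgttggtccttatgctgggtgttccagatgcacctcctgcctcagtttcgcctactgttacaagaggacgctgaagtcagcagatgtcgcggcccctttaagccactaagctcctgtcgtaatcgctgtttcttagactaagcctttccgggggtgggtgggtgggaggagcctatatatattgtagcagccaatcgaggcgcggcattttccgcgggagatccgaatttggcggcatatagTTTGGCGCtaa
Mcm6: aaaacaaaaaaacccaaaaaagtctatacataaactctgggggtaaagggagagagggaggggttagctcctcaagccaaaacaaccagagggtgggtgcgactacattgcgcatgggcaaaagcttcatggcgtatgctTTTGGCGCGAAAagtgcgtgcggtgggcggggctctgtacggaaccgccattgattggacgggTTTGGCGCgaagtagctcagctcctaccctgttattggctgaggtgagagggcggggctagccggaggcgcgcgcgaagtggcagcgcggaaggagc
Mcm5: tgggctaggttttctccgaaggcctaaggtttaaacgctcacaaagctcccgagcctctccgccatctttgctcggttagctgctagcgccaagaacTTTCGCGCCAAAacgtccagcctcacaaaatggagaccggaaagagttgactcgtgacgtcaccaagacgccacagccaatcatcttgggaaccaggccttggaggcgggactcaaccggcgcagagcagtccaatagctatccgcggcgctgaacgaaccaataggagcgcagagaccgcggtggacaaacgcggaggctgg
Rfc3: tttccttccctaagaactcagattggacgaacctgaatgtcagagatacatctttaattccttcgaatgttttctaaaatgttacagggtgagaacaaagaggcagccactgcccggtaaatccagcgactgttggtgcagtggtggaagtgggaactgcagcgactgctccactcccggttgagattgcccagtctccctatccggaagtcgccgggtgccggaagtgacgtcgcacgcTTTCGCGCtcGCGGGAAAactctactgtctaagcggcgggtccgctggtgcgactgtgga
Rrm2: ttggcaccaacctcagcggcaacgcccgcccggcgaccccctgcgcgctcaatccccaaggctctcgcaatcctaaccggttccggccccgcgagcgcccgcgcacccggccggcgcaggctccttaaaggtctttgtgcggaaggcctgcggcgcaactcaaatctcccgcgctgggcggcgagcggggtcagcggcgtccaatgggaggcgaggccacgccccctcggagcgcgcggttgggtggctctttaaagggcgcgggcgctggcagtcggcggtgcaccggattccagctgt

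The 42 genes stood at nearly one shared level in 14 of the 16 samples, and well below it in 2 Bank1/Pax5 leukemic marrows. The shared level was taken on each array as the median log2 level of the 42 genes. In Bank1/Pax5 leukemic marrow it was 9.77, 9.98, 10.04, 8.12, 9.60 and 8.72 on arrays 1 to 6. In Pax5 leukemic marrow it was 9.93, 9.90, 9.50, 9.76, 9.78 and 10.05. In WT precursors it was 9.74, 9.88, 9.90 and 9.63. Arrays 4 and 6 of Bank1/Pax5 leukemic marrow thus lay below every other array, and the remaining 14 arrays overlapped between the groups. The group means were 9.37 ± 0.78 in Bank1/Pax5 leukemic marrow (SD, n = 6), 9.82 ± 0.19 in Pax5 leukemic marrow (SD, n = 6) and 9.79 ± 0.13 in WT precursors (SD, n = 4). Without arrays 4 and 6 the Bank1/Pax5 mean was 9.85 ± 0.20 (SD, n = 4). These 2 arrays were singled out for their low cell cycle levels in earlier results of the same data, so the values that follow describe them and carry no test. In bulk samples fewer cells of a type and less RNA per cell cannot be told apart.

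**Figure D1:**
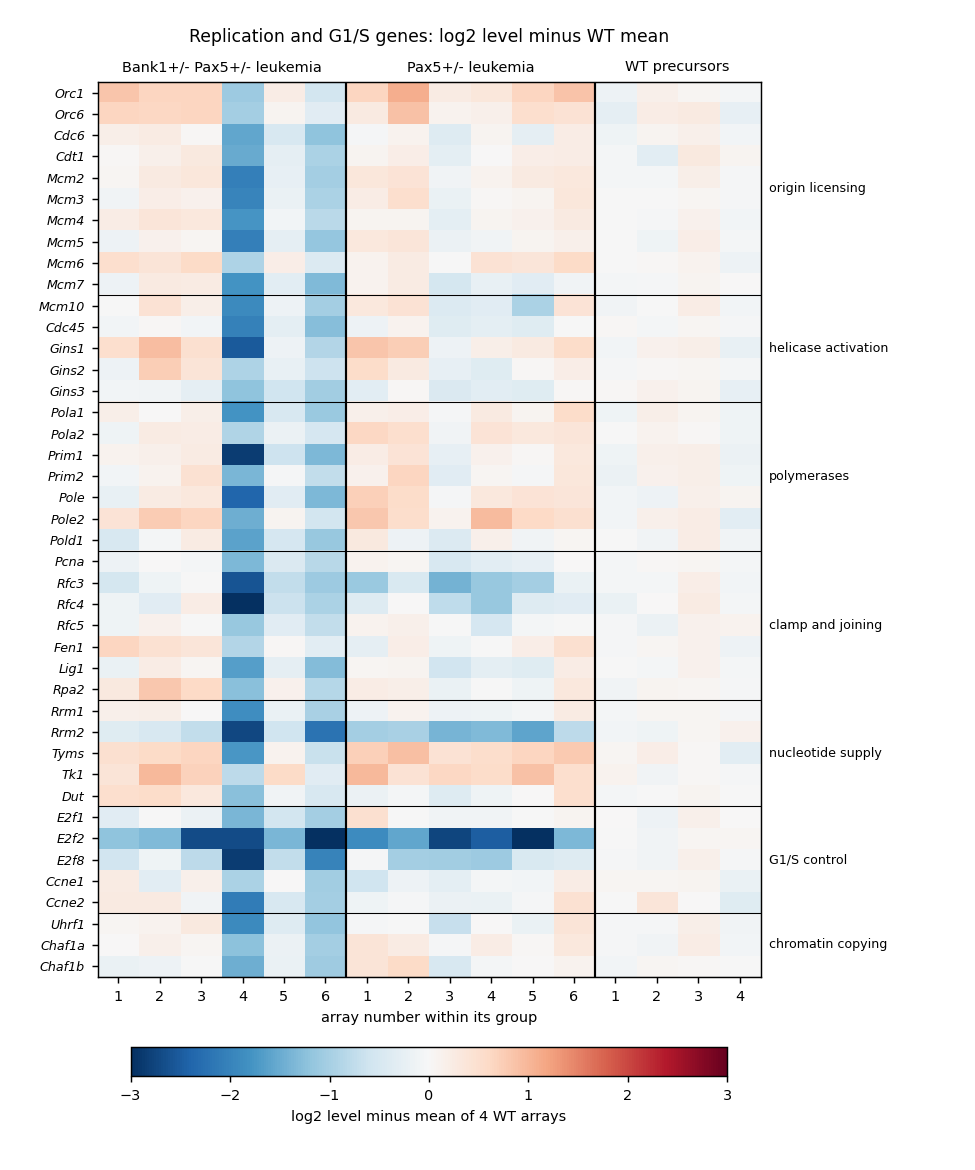
Log2 level minus the WT mean for each of the 42 genes (grouped by role) on each of the 16 arrays, with Bank1/Pax5 leukemic marrow at the left, Pax5 leukemic marrow next and WT precursors at the right. Arrays 4 and 6 of Bank1/Pax5 leukemic marrow are low for nearly all genes, and E2f2 is low on all 12 leukemia arrays.

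The drop on these 2 arrays was shared by nearly every listed gene. Arrays 4 and 6 were the 2 lowest of all 16 for 39 of the 42 genes (92.9%), against 914 of 19938 genes (4.58%). The exceptions were Rfc3, Rfc4 and E2f2, which had other low arrays. Array 4 alone was the lowest of the 16 for 40 of 42 genes, and array 6 was lowest for E2f2 and Ccne1. Measured against the mean of the other 4 Bank1/Pax5 arrays, array 4 had a median log2 difference of -1.68 over the 42 genes, and 39 of them lay more than 1 log2 unit below. Array 6 had a median log2 difference of -1.02, and 25 genes lay more than 1 unit below. Over all genes the medians were 0.01 for array 4 and -0.04 for array 6, and the share of genes more than 1 unit below was 4.06% on array 4 and 2.07% on array 6.

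The difference on array 4 varied in size between roles. The median log2 difference was -1.74 for licensing factors, -1.92 for helicase activators, -1.76 for polymerases and primase, -1.60 for the clamp group, -1.90 for nucleotide supply, -1.10 for G1/S control and -1.32 for chromatin copying. On array 6 the medians were closer together, from -1.12 for helicase activators to -0.72 for the clamp group. The licensing helicase shows the pattern: Mcm2, a subunit of the ring that opens the DNA, had a log2 level of 8.73 on array 4 and 9.76 on array 6, against 10.54 to 11.12 on the other 4 Bank1/Pax5 arrays. Its levels were 10.67, 11.08 and 11.20 in Pax5 leukemic marrow (lowest, median, highest) and 10.73, 10.73, 10.96 and 10.75 in WT precursors. Mcm7, a partner in the same ring, was 9.48 and 9.95 on arrays 4 and 6, and 10.97 to 11.55 on the other 4. Both ring subunits were thus lowest on the same 2 samples.

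The largest drops on array 4 were those of Rfc4, Gins1 and Prim1. Rfc4, a subunit of the clamp loader, had a log2 level of 8.08 on array 4, which is 9.11-fold lower than the mean of the other 4 Bank1/Pax5 arrays, whose levels were 10.84 to 11.71. On array 6 Rfc4 was 10.55, close to that range. Array 4 was thus the sample that set Rfc4 apart. Gins1, a subunit of the GINS helicase activator, was 7.81-fold lower on array 4, with a level of 6.35 against 8.73 to 9.80 on the other 4. Prim1, the catalytic primase subunit that lays down RNA primers, was 7.09-fold lower, with 6.88 against 9.10 to 9.99. Pole, the catalytic subunit of the leading strand polymerase, was 5.22-fold lower on array 4 and 2.54-fold lower on array 6. Pcna, the sliding clamp, was only 2.29-fold lower on array 4, with a level of 11.41 there and 11.92 on array 6 against 12.32 to 12.78. Its difference was thus among the smaller ones on array 4. The largest fold differences on array 6 were 3.83 for E2f2, 3.19 for Rrm2 and 2.72 for E2f8, a repressive E2F.

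**Figure D2:**
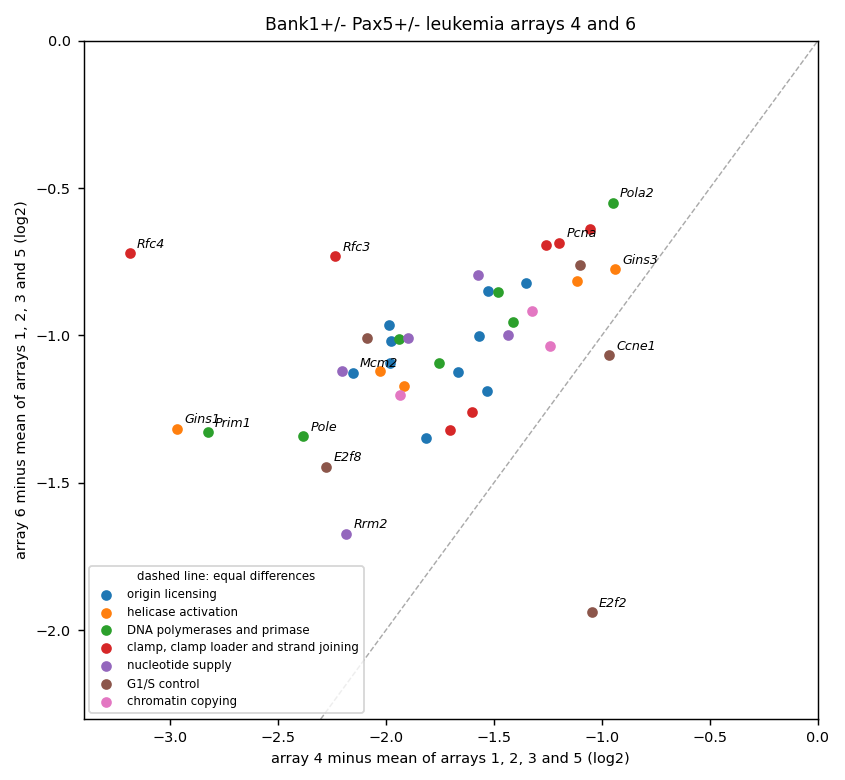
Log2 difference of array 6 against that of array 4, each taken from the mean of the other 4 Bank1/Pax5 leukemic marrow arrays, with 1 point per gene. All 42 genes lie below 0 on both axes, from -3.19 (Rfc4) to -0.94 (Gins3) for array 4 and from -1.94 (E2f2) to -0.55 (Pola2) for array 6.

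Mitosis genes shared the pattern. Of 25 measured mitosis genes, arrays 4 and 6 were the 2 lowest for 25, and their median log2 difference from the other 4 Bank1/Pax5 arrays was -2.02 on array 4 and -1.23 on array 6. Of 47 other replication genes the 2 arrays were lowest for 29, with medians of -1.04 and -0.58. Of 13 MYC targets, Myc itself included, they were lowest for 2, with medians of -0.63 and -0.22. The genes of the MYC list thus showed a smaller difference on these arrays than the replication and mitosis genes did. This is a description with no test.

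Cell type markers differed between the same arrays, in both directions. Pro-B and pre-B markers had a median level of 8.09 on array 4 and 8.93 on array 6, against 9.76 to 11.81 on the other 4 Bank1/Pax5 arrays. Monocyte and macrophage markers were at 10.96 on array 4 and 9.04 on array 6, against 8.17 to 10.68 on the others. In WT precursors they lay between 6.39 and 6.60, and 9 of the 11 were dim there, Csf1r, C1qa and Adgre1 among them. On array 4 the median difference from the other 4 Bank1/Pax5 arrays was 1.54 for megakaryocyte markers and 1.23 for stromal and endothelial markers. It was 0.71 for erythroid, 0.41 for T cell, 0.12 for NK cell and -0.34 for neutrophil markers. On array 6 it was -1.60 for erythroid markers, -1.12 for neutrophil markers and 0.63 for NK cell markers, of which all 8 were above. It was 0.50 there for megakaryocyte, 0.22 for T cell and -0.10 for stromal and endothelial markers. The 2 arrays with low replication genes thus both lay below the other 4 Bank1/Pax5 arrays in pro-B and pre-B markers. Their median differences had opposite signs for monocyte and macrophage, erythroid, and stromal and endothelial markers. For the remaining lists the signs were the same. Array 5 of Bank1/Pax5 leukemic marrow, with a level of 10.68 for monocyte and macrophage markers, had a replication level of 9.60. Arrays 3 and 5 of Pax5 leukemic marrow had pro-B and pre-B levels of 7.44 and 7.89, the lowest of all arrays, and replication levels of 9.50 and 9.78. The part of other cell types in the drop on arrays 4 and 6 was not tested.

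**Figure D3:**
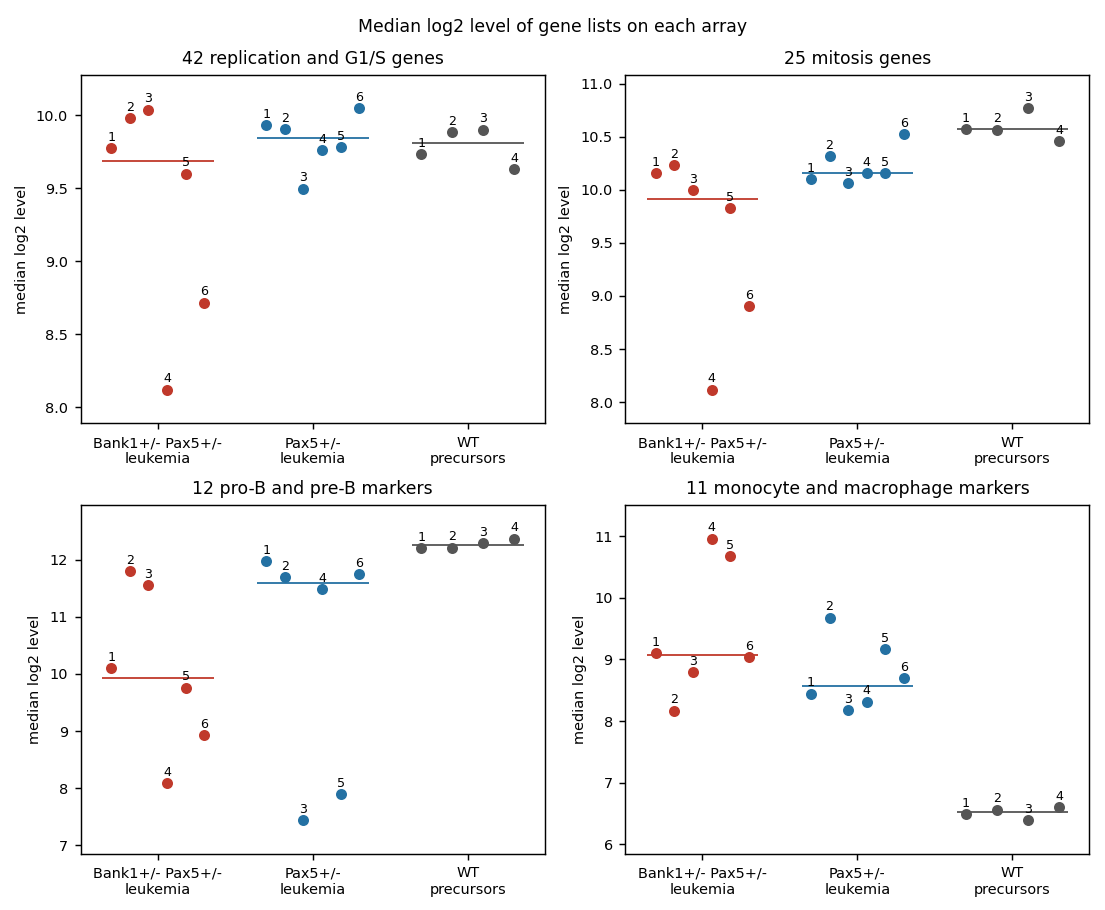
Median log2 level on each array of the 42 replication and G1/S genes, 25 mitosis genes, 12 pro-B and pre-B markers and 11 monocyte and macrophage markers, with 1 point per array and a line at the group median. Arrays 4 and 6 of Bank1/Pax5 leukemic marrow, at 8.12 and 8.72 for the 42 genes, lie below all other arrays there, while the monocyte and macrophage markers are higher in both leukemias than in WT precursors.

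The spread between samples differed between the groups. The median SD of the 42 genes was 0.808 in Bank1/Pax5 leukemic marrow, 0.245 in Pax5 leukemic marrow and 0.128 in WT precursors, and over all genes it was 0.180 in Bank1/Pax5 leukemic marrow, 0.159 in Pax5 leukemic marrow and 0.0866 in WT precursors. Over the 4 Bank1/Pax5 arrays other than 4 and 6 the median SD of the 42 genes was 0.254. One fit over all arrays shares its estimate of error between the groups, so the wide spread in Bank1/Pax5 leukemic marrow enters the test of the Pax5 leukemic marrow too.

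The first comparison asked how these genes differ between Bank1/Pax5 leukemic marrow and normal precursors. With limma and a p adjusted by Benjamini-Hochberg under 0.05 across the 19938 genes, 1 of the 42 genes was lower in Bank1/Pax5 leukemic marrow, a smaller share than the 12.8% of all genes that were called lower. None was higher, against 6.80% of all genes, and 5 of the 42 had an unadjusted p under 0.05, a smaller share than the 6560 of 19938 genes that did. The median log2 difference of the 42 genes was -0.46 and that of all genes was -0.03. Of the 42 differences, 37 were negative and 5 positive. The genes whose groups did not overlap were Rrm2, E2f2 and E2f8, all lower, where 12.3% of all genes had non-overlapping lower groups and 7.35% non-overlapping higher ones.

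E2f2, an activating E2F that drives S phase genes, was the gene that passed. Its log2 level was 9.59, 9.47, 8.12, 8.10, 9.42 and 7.21 on arrays 1 to 6 of Bank1/Pax5 leukemic marrow. In WT precursors it was 10.77, 10.68, 10.86 and 10.86. Each leukemia sample lay below each WT sample, by over 1 log2 unit. The log2 difference was -2.14 (SE 0.46, 95% interval -3.12 to -1.16, limma adjusted p = 0.00432), a 4.41-fold lower level. Among the Bank1/Pax5 and WT arrays compared here, arrays 4 and 6 were the 2 lowest for E2f2, although another Bank1/Pax5 array, at 8.12, was close to array 4. They were not its 2 lowest once Pax5 leukemic marrow, with levels down to 7.65, was counted. Against the mean of the other 4 Bank1/Pax5 arrays, E2f2 had log2 differences of -1.05 on array 4 and -1.94 on array 6. Without arrays 4 and 6 its log2 difference from WT precursors was -1.64. Over the 26 alternative settings it was called in all 26, with adjusted p between 0.000545 and 0.0495.

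E2f8 and Rrm2 came next and did not pass. Rrm2, the small subunit of ribonucleotide reductase that makes deoxynucleotides in S phase, had log2 levels of 8.90, 10.96 and 11.26 in Bank1/Pax5 leukemic marrow (lowest, median, highest) and of 11.55, 11.50, 11.68 and 11.76 in WT precursors. Its log2 difference was -1.19 (SE 0.40, limma adjusted p = 0.0518). E2f8, an atypical E2F that represses E2F targets, was at 7.46, 9.54 and 10.17 in Bank1/Pax5 leukemic marrow against 10.28, 10.20, 10.46 and 10.28 in WT precursors. Its log2 difference was -1.18 (SE 0.42, limma adjusted p = 0.0631). Both genes had their 2 lowest values on arrays 4 and 6. In G1/S control the other differences were -0.57 for E2f1, an activating E2F, -0.31 for Ccne1 and -0.53 for Ccne2, the E cyclins that activate Cdk2.

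In the other roles no further member passed. Log2 differences ran from -0.57 (Mcm5) to 0.12 (Orc1) among licensing factors, from -0.62 (Cdc45) to -0.13 (Gins2) among helicase activators, and from -0.72 (Prim1) to -0.02 (Pole2) among polymerases and primase. They ran from -0.87 (Rfc4) to 0.05 (Fen1) in the clamp group and from -0.51 (Chaf1b) to -0.37 (Chaf1a) among chromatin copying factors. Within nucleotide supply, Tk1, the thymidine salvage kinase, had the largest positive difference of the 42 genes, at 0.25, and Rrm2 the most negative of that role. Without arrays 4 and 6 the median difference of the 42 genes was 0.01, against -0.03 for all genes.

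Leaving out arrays 4 and 6, a choice made on their cell cycle levels, changed which genes were called. Since the arrays were removed for low levels of these same genes, the counts are a description and not a test of a higher level. Then 5 of the 42 genes were higher in Bank1/Pax5 leukemic marrow than in WT precursors, where 7.39% of all genes were, and 2 were lower, where 12.3% were. The 5 had log2 differences of 0.66 for Tk1, 0.58 for Orc1, the largest subunit of the origin recognition complex, 0.45 for Rpa2, a subunit of the single-strand binding complex, 0.45 for Tyms, the thymidylate synthase, and 0.42 for Mcm6. The 2 lower genes were E2f2 at -1.64 and Rrm2 at -0.54.

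The second comparison asked the same of Pax5 leukemic marrow. Of the 42 genes, 2 were lower in Pax5 leukemic marrow than in WT precursors, a smaller share than the 13.8% of all genes called lower, and none was higher, against 9.53% of all genes. At an unadjusted p under 0.05 there were 4 genes, against 7471 of 19938 genes. The median log2 difference was 0.06, with 23 positive and 19 negative, and that of all genes was -0.05. This comparison and the first share the same WT samples, so their values stand side by side here without a measure of agreement.

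E2f2 was lower in Pax5 leukemic marrow too. Its log2 levels were 8.89, 9.24, 8.03, 8.32, 7.65 and 9.44 in Pax5 leukemic marrow, all below the lowest WT level of 10.68. The log2 difference was -2.20 (SE 0.46, limma adjusted p = 0.00323), a 4.58-fold lower level, and it was called in all 26 alternative settings, with adjusted p between 8.63e-05 and 0.0123. E2f2 thus averaged 8.65 ± 0.98 in Bank1/Pax5 leukemic marrow, 8.59 ± 0.71 in Pax5 leukemic marrow (SD, n = 6 each) and 10.79 ± 0.09 in WT precursors (SD, n = 4). Between the leukemias its log2 difference was 0.06 with a 95% interval of -0.82 to 0.93 (limma adjusted p = 0.948).

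Rrm2 was the second gene to pass. It was at 10.04, 10.45 and 10.84 in Pax5 leukemic marrow, and the highest leukemia sample lay below the lowest WT sample. The log2 difference was -1.18 (SE 0.40, limma adjusted p = 0.0472), a 2.26-fold lower level. The call was lost when any 1 Pax5 or WT array, or array 3 of Bank1/Pax5 leukemic marrow, was left out, and it held in 15 of the 26 alternative settings, with adjusted p between 8.18e-05 and 0.117.

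**Figure D4:**
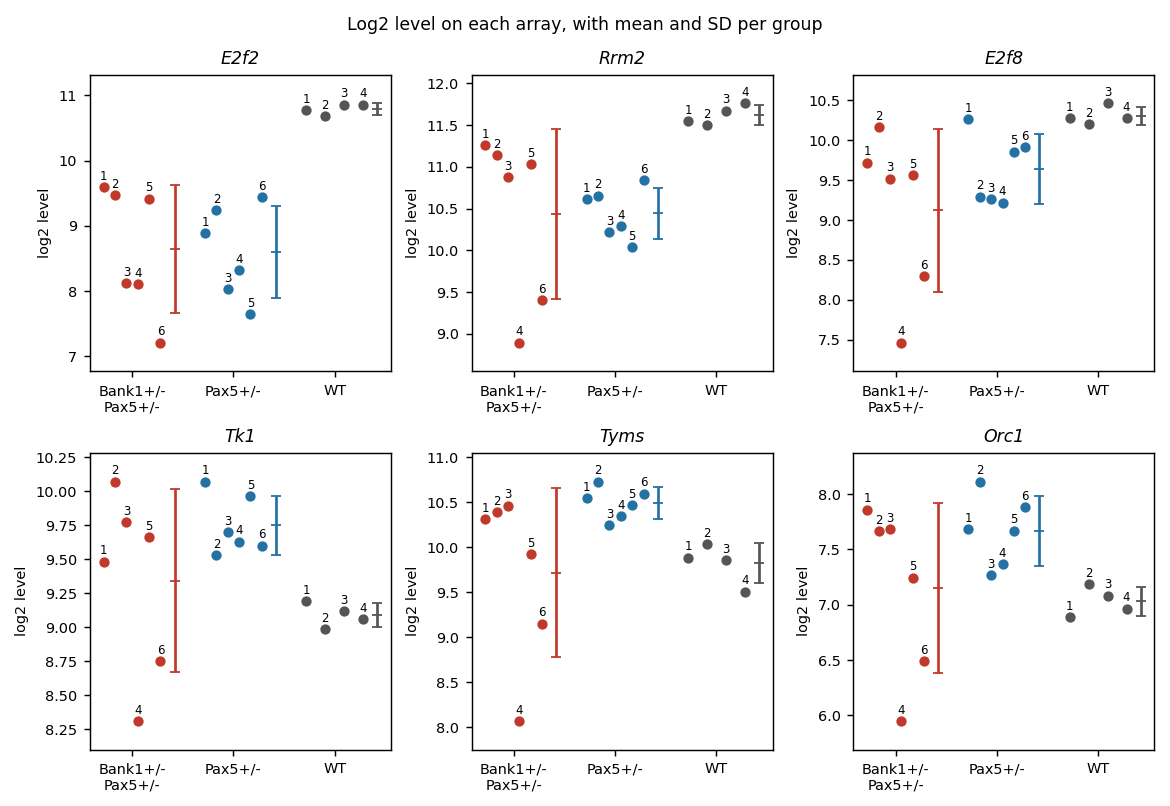
Log2 level of E2f2, Rrm2, E2f8, Tk1, Tyms and Orc1 on each array, with the mean and SD of each group. E2f2 lies below the WT precursors on every leukemia array, while Tk1, Tyms and Orc1 lie above the WT precursors on every Pax5 leukemic marrow array.

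For Tyms, Tk1 and Orc1 every Pax5 leukemic marrow lay above every WT sample, but none of the 3 passed the test. Tyms was at 10.25, 10.51 and 10.73 in Pax5 leukemic marrow (lowest, median, highest) against 9.89, 10.03, 9.86 and 9.51 in WT precursors, with a log2 difference of 0.67 (SE 0.37, limma adjusted p = 0.201). Tk1 was at 9.53, 9.66 and 10.07 in Pax5 leukemic marrow against 9.19, 8.99, 9.12 and 9.06 in WT precursors, with a log2 difference of 0.66 (SE 0.27, limma adjusted p = 0.0902). Orc1 was at 7.26, 7.68 and 8.11 in Pax5 leukemic marrow against 6.88, 7.19, 7.08 and 6.97 in WT precursors, with a log2 difference of 0.63 (SE 0.32, limma adjusted p = 0.159). Over all genes, 11.6% had a non-overlapping higher group. Orc6, the other listed subunit of the origin recognition complex, overlapped, with 9.72 to 10.50 in Pax5 leukemic marrow and 9.35 to 9.90 in WT precursors (limma adjusted p = 0.356). The gene symbols near the Tk1 probe set in the order of probe set numbers were mostly on another chromosome than Tk1 (14 of 16), but the other Tk1 probe set gave 9.51 to 10.13 in Pax5 leukemic marrow and 8.68 to 9.03 in WT precursors.

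Rfc3 had a larger difference than these, in the other direction, and did not pass either. It had levels of 8.71, 9.07 and 9.95 in Pax5 leukemic marrow, below the WT values of 10.08, 10.09, 10.34 and 10.06. Its log2 difference was -0.89 (SE 0.40, limma adjusted p = 0.117), and with Rrm2 and E2f2 it made the 3 genes with non-overlapping lower groups, where 13.2% of all genes had such groups. E2f8 differed by -0.67 and Pole2, the accessory subunit of the leading strand polymerase, by 0.58, and neither passed. Licensing factors ran from -0.14 (Mcm7) to 0.63 (Orc1), helicase activators from -0.23 (Gins3) to 0.40 (Gins1), polymerases and primase from -0.03 (Pold1) to 0.58 (Pole2), and chromatin copying factors from -0.09 (Uhrf1) to 0.20 (Chaf1a).

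A fit of the Pax5 and WT arrays alone, without the wide spread of Bank1/Pax5 leukemic marrow, called 5 of the 42 genes higher and 4 lower. The higher genes were Orc1, Pole, Pole2, Tk1 and Tyms, where 13.1% of all genes were called higher, and the lower genes were E2f2, E2f8, Rfc3 and Rrm2, where 16.1% were called lower. Over all settings the adjusted p ran from 0.00182 to 0.179 for Tk1, from 0.00211 to 0.397 for Tyms, from 0.0109 to 0.283 for Orc1 and from 0.00577 to 0.223 for Rfc3.

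The third comparison asked how these genes differ between the 2 leukemias, and the part of the Bank1 loss in a difference was not tested. This comparison shares its samples with the first 2 comparisons. In limma no member passed in either direction, where 1.71% of all genes were called higher and 5.00% lower in Bank1/Pax5 leukemic marrow, and 10 members had an unadjusted p under 0.05, a share close to that of all genes (4518 of 19938). The median log2 difference was -0.42 over the 42 genes and 0.02 over all genes, with 40 of 42 negative. No member had groups that did not overlap, where 0.833% of all genes had non-overlapping higher groups and 1.87% lower ones. Without arrays 4 and 6 the median of the 42 genes was 0.02, and 22 differences were positive and 20 negative.

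The smallest adjusted p-values were those of Pola2 and E2f1. Pola2, the accessory subunit of the polymerase that extends primers, was at 8.81, 9.57 and 9.95 in Bank1/Pax5 leukemic marrow (lowest, median, highest) and at 9.62, 10.11 and 10.34 in Pax5 leukemic marrow. Its log2 difference was -0.56 (SE 0.17, limma adjusted p = 0.0678, 0.0326 to 0.264 over all settings). E2f1 was at 7.94, 8.86 and 9.29 in Bank1/Pax5 leukemic marrow and at 9.18, 9.29 and 9.79 in Pax5 leukemic marrow, with a log2 difference of -0.63 (SE 0.20, limma adjusted p = 0.0712, 0.0277 to 0.213 over all settings). For both genes the groups overlapped. Pole had the most negative difference, at -1.01 (SE 0.37, limma adjusted p = 0.117), with 7.60, 9.70 and 10.29 in Bank1/Pax5 leukemic marrow and 9.95, 10.37 and 10.70 in Pax5 leukemic marrow.

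By role, log2 differences ran from -0.68 (Mcm5) to -0.23 (Mcm6) among licensing factors, from -0.68 (Gins1) to -0.21 (Gins2) among helicase activators, from -1.01 (Pole) to -0.41 (Prim2) among polymerases and primase, and from -0.38 (Lig1) to 0.05 (Rfc3) in the clamp group. Nucleotide supply ran from -0.77 (Tyms) to -0.01 (Rrm2), and chromatin copying from -0.60 (Chaf1b) to -0.42 (Uhrf1), the factor that reads newly copied methylated DNA. With arrays 4 and 6 left out, Rrm2 had a log2 difference of 0.64 between Bank1/Pax5 and Pax5 leukemic marrow and was the 1 member called, where 1.51% of all genes were called higher and 3.39% lower. These arrays held the 2 lowest Rrm2 levels and were removed for low cell cycle levels, so this is a description and not a test. Rrm2 was at 10.87 to 11.26 on the 4 remaining Bank1/Pax5 arrays, above the Pax5 range of 10.04 to 10.84 and below the WT range of 11.50 to 11.76.

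**Figure D5:**
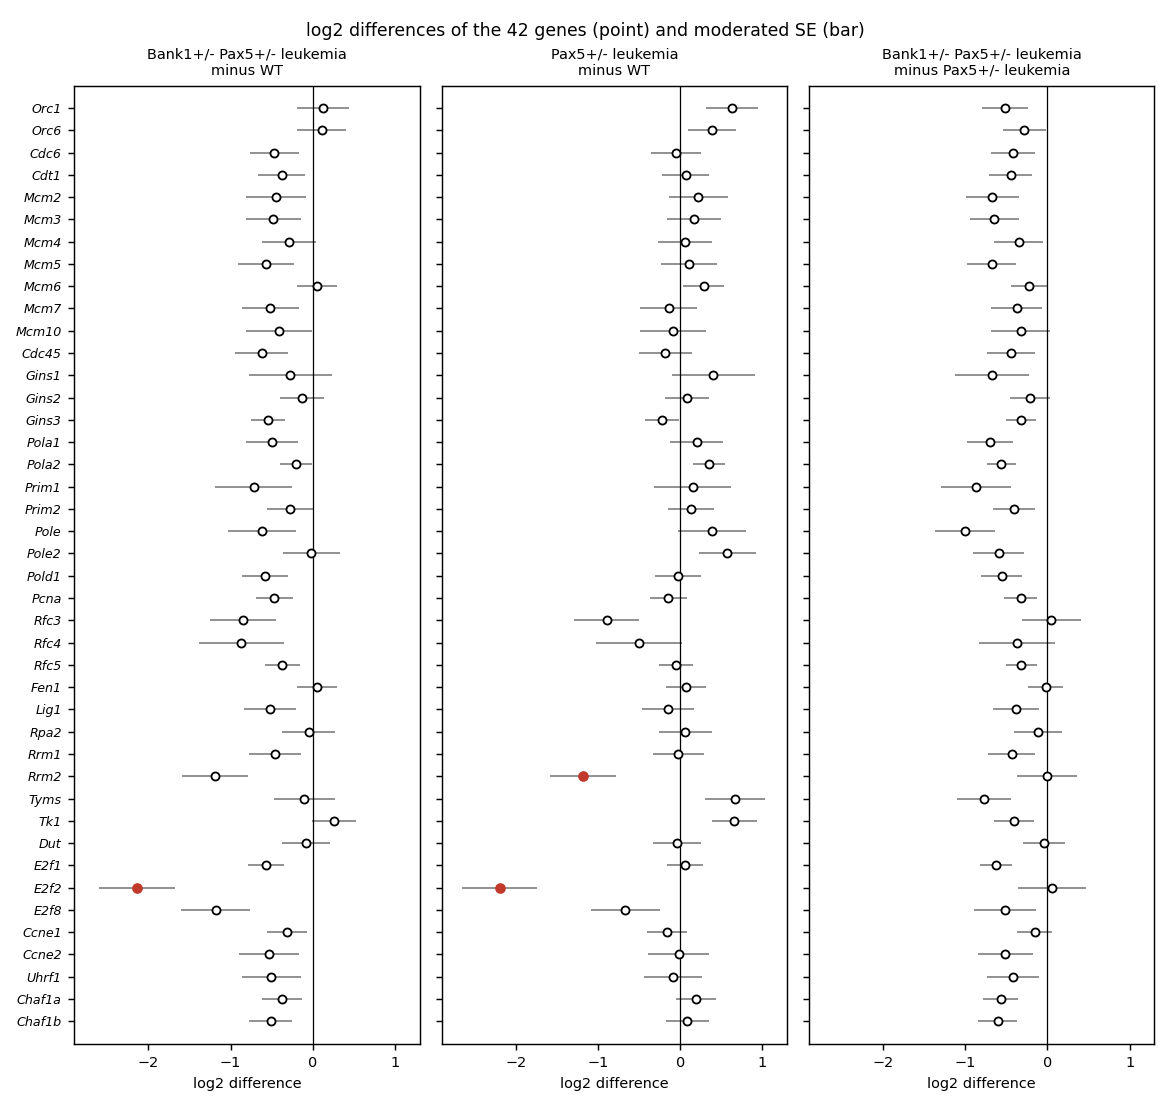
Log2 difference with its moderated standard error for each of the 42 genes in Bank1/Pax5 leukemic marrow minus WT precursors, Pax5 leukemic marrow minus WT precursors and Bank1/Pax5 minus Pax5 leukemic marrow, with called genes filled red. E2f2 is called at -2.14 and -2.20 in the first 2 panels and Rrm2 at -1.18 in the second, and none is called in the third.

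Other genes of the pathway were read from lists of names. Of 47 other replication genes, none was higher and 4 were lower in Bank1/Pax5 leukemic marrow than in WT precursors, 4 were higher and 2 lower in Pax5 leukemic marrow than in WT precursors, and none was higher and 6 lower in Bank1/Pax5 leukemic marrow than in Pax5 leukemic marrow. The shares against WT precursors were below those of all genes in both directions, and the 6 lower between the leukemias were a larger share than the 5.00% of all genes. Rrm2b, the p53-induced small subunit of ribonucleotide reductase, was at 7.21 to 7.69 in Bank1/Pax5 leukemic marrow, 7.44 to 7.96 in Pax5 leukemic marrow and 9.66 to 9.99 in WT precursors. Its log2 difference was -2.44 in Bank1/Pax5 leukemic marrow (limma adjusted p = 5.46e-09) and -2.17 in Pax5 leukemic marrow (limma adjusted p = 2.67e-08), each against WT precursors. Both small subunits of the enzyme were thus lower than in WT precursors in Pax5 leukemic marrow, while Rrm1, the large subunit, differed there by -0.02. Dck, a salvage kinase for deoxycytidine, had log2 differences from WT precursors of -1.43 in Bank1/Pax5 leukemic marrow and -1.21 in Pax5 leukemic marrow, and passed in both. Dna2, a nuclease that trims flaps on the lagging strand, was higher by 0.89 in Pax5 leukemic marrow than in WT precursors (limma adjusted p = 0.000464) and had a log2 difference of -0.51 between Bank1/Pax5 and Pax5 leukemic marrow (limma adjusted p = 0.0276). Cdc7, the kinase that starts the loaded helicase, was lower in Bank1/Pax5 leukemic marrow than in Pax5 leukemic marrow, with a log2 difference of -1.07 (limma adjusted p = 0.0276).

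Of 23 other G1/S regulators, 1 was higher and 9 lower in Bank1/Pax5 leukemic marrow than in WT precursors, 1 higher and 6 lower in Pax5 leukemic marrow than in WT precursors, and none higher and 2 lower in Bank1/Pax5 leukemic marrow than in Pax5 leukemic marrow. The lower calls were a larger share than the 12.8%, 13.8% and 5.00% of all genes called lower in these comparisons, and the higher calls a smaller one. Cdkn1b, which encodes the cell cycle inhibitor p27, was at 9.74 to 10.03 in Bank1/Pax5 leukemic marrow, 9.81 to 10.37 in Pax5 leukemic marrow and 11.38 to 11.42 in WT precursors. Its log2 difference from WT precursors was -1.53 in Bank1/Pax5 leukemic marrow (limma adjusted p = 1.29e-07) and -1.26 in Pax5 leukemic marrow (limma adjusted p = 1.27e-06). Rb1, the retinoblastoma protein that restrains E2F factors, was lower in both, with log2 differences from WT precursors of -1.42 in Bank1/Pax5 leukemic marrow and -1.50 in Pax5 leukemic marrow. E2f7, the partner of E2f8, and Skp2, which marks p27 for breakdown, were lower in Bank1/Pax5 leukemic marrow than in WT precursors, with log2 differences of -1.22 and -0.76. Cdk6, a kinase that phosphorylates the retinoblastoma protein, was higher by 1.16 in Pax5 leukemic marrow than in WT precursors. E2f4, a repressive E2F, was lower in Bank1/Pax5 leukemic marrow than in Pax5 leukemic marrow, with a log2 difference of -0.49 (limma adjusted p = 0.00783).

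Mitosis genes and MYC targets were counted in the same way. Of 25 mitosis genes, 6 were lower in Bank1/Pax5 leukemic marrow than in WT precursors, none passed in Pax5 leukemic marrow (lowest limma adjusted p = 0.149, none at an unadjusted p under 0.05), and 1 was lower in Bank1/Pax5 than in Pax5 leukemic marrow. All 25 differences from WT precursors were negative in both leukemias, with medians of -0.90 in Bank1/Pax5 leukemic marrow and -0.27 in Pax5 leukemic marrow. Of all genes 12.8%, 13.8% and 5.00% were called lower in the 3 comparisons. The list of 13 MYC targets also holds Myc itself, which was called higher than in WT precursors in both leukemias. Of the 13, 4 were higher in Bank1/Pax5 leukemic marrow and 9 in Pax5 leukemic marrow than in WT precursors. Between the leukemias 7 were lower in Bank1/Pax5 than in Pax5 leukemic marrow. Of all genes 6.80% and 9.53% were called higher than in WT precursors. With arrays 4 and 6 left out, mitosis genes lower than in WT precursors numbered 12 in Bank1/Pax5 leukemic marrow and 8 in Pax5 leukemic marrow, and MYC targets higher than in WT precursors numbered 10 in Bank1/Pax5 leukemic marrow and 11 in Pax5 leukemic marrow. MYC targets lower in Bank1/Pax5 than in Pax5 leukemic marrow then numbered 3. Of all 19938 genes, 2461 in Bank1/Pax5 and 3164 in Pax5 leukemic marrow were then lower than in WT precursors. Higher genes numbered 1473 and 2355, and 675 were lower in Bank1/Pax5 than in Pax5 leukemic marrow. Arrays 4 and 6 were removed for low cell cycle levels, so these counts are a description and not a test. The Pax5 and WT arrays all stayed in, and the median mitosis difference between them stayed at -0.27. For that comparison only the shared estimate of error, and the p-values drawn from it, changed. Myc itself was at 11.08 to 11.41 in Bank1/Pax5 leukemic marrow, 10.88 to 12.04 in Pax5 leukemic marrow and 9.64 to 9.87 in WT precursors, with log2 differences from WT precursors of 1.56 in Bank1/Pax5 leukemic marrow and 1.93 in Pax5 leukemic marrow. The 42 replication and G1/S genes had median differences from WT precursors of -0.46 in Bank1/Pax5 leukemic marrow and 0.06 in Pax5 leukemic marrow.

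Markers of other marrow cells differed between the total marrow of the leukemias and the WT fraction. Over all genes, 6.80% were called higher and 12.8% lower in Bank1/Pax5 leukemic marrow than in WT precursors. In Pax5 leukemic marrow 9.53% were called higher and 13.8% lower. Monocyte and macrophage markers lay at 8.17 to 10.96 in Bank1/Pax5 leukemic marrow, 8.17 to 9.68 in Pax5 leukemic marrow and 6.39 to 6.60 in WT precursors, with 9 of 11 called higher than in WT precursors in Bank1/Pax5 leukemic marrow and 6 of 11 in Pax5 leukemic marrow. Megakaryocyte markers lay at 9.39 to 12.03 in Bank1/Pax5 leukemic marrow, 8.74 to 11.34 in Pax5 leukemic marrow and 6.83 to 7.16 in WT precursors, with 5 of 5 called higher in both leukemias. Stromal and endothelial markers lay at 8.31 to 10.20 in Bank1/Pax5 leukemic marrow, 8.19 to 10.18 in Pax5 leukemic marrow and 6.74 to 6.80 in WT precursors. Of these 10 markers, 6 were called higher in Bank1/Pax5 leukemic marrow and 7 in Pax5 leukemic marrow. NK cell markers ran the other way, at 5.75 to 8.25 in Bank1/Pax5 leukemic marrow, 5.50 to 5.69 in Pax5 leukemic marrow and 7.92 to 8.87 in WT precursors. Of the 8 NK cell markers, 4 were called lower in Bank1/Pax5 leukemic marrow and 5 in Pax5 leukemic marrow. Erythroid markers lay at 6.34 to 10.06 in Bank1/Pax5 leukemic marrow, 6.32 to 6.63 in Pax5 leukemic marrow and 6.71 to 7.33 in WT precursors. None of the 8 was called in Bank1/Pax5 leukemic marrow, and in Pax5 leukemic marrow 7 of 8 differences were negative and 1, Alas2 at -2.89, was called lower. Neutrophil markers lay at 7.85 to 12.35 in Bank1/Pax5 leukemic marrow, 7.06 to 11.76 in Pax5 leukemic marrow and 7.33 to 9.50 in WT precursors, with 12 of 12 differences positive in Bank1/Pax5 leukemic marrow, 11 of 12 in Pax5 leukemic marrow and 1 called higher in each. T cell markers lay at 6.38 to 7.41 in Bank1/Pax5 leukemic marrow, 5.77 to 6.40 in Pax5 leukemic marrow and 6.54 to 6.75 in WT precursors, with 0 of 7 called in Bank1/Pax5 leukemic marrow and 1 of 7 lower in Pax5 leukemic marrow. The part of these cells in the levels of the replication genes, E2f2 and Rrm2 included, was not tested.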

How the data were processed

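Labelled RNA of 16 mouse samples was hybridised to oligonucleotide arrays. Per the submitters' processing notes, the authors used RMA from the oligo package, whose version, filters and build the sources used here do not give. The deposited values, log2 intensities of probe sets, were used as given. Of 35556 probe sets, 21789 named 1 gene, 1621 several and 12146 none in the platform annotation, and 91 had no current gene record. The comparisons used only probe sets with 1 gene. Where a gene had several, as 999 did, its probe set of highest mean over the arrays stood for it, and 19938 genes remained. All 42 listed genes were measured.

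A model of 3 group means was fitted over the 16 arrays by limma 3.58.1 (R 4.3.3) with empirical Bayes moderation. Calls were two-sided, at p under 0.05 after Benjamini-Hochberg adjustment over the genes tested, and SE is the moderated standard error. The fit was tested on simulated data. Every one of the 42 genes could be named, and of the other lists up to 4 genes with the smallest p in each comparison. The members and lists were chosen with earlier results of these data known. Samples were grouped by their titles. The sources used here give no hybridisation batches, and the number of arrays limits the precision. Where the labels do not say that samples of a group came from separate mice, p-values measure only the spread between samples.

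The 26 alternatives per comparison were the mean of probe sets, removal of dim genes, median centring, cyclic loess, trended and robust moderation, weights per array or group, a fit of the 2 groups alone, a block by replicate number, arrays 4 and 6 of Bank1/Pax5 leukemic marrow left out, and each array left out in turn. Promoter windows came from RefSeq, and tables and figures were made with Python 3.11.15, pandas 2.3.3, numpy 2.4.6 and matplotlib 3.10.9. Of the 42 genes, 36 had a promoter window in the tables used, and Mcm4, Gins1, Gins2, Prim2, Pole and Ccne2 had none.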

Additional observations from a re-analysis of the deposited data

Results flagged for a closer look

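In 8 of the 129 groups of values checked, 1 sample lay farther from the others than Dixon's test allows at the 95% level, and chance gives about 1 in 20. Of the 8, 1 was in Bank1/Pax5 leukemic marrow, 4 in Pax5 leukemic marrow and 3 in WT precursors. In Bank1/Pax5 leukemic marrow Rfc4 had its lowest value, 8.08, on array 4. In Pax5 leukemic marrow Mcm4 had its lowest value, 10.257, on array 3 and Rfc5 its lowest, 10.096, on array 4. E2f1 had its highest value there, 9.787, on array 1 and Ccne2 its highest, 9.996, on array 6. In WT precursors Mcm2 had its highest value, 10.961, and Rfc3 its highest, 10.336, both on array 3, and Ccne1 had its lowest, 9.713, on array 4.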

How the results depend on the processing

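E2f2 was called lower than in WT precursors in both leukemias under all 26 alternatives. The count of listed genes lower in Bank1/Pax5 leukemic marrow than in WT precursors was 1 and became 3 without dim genes, 5 with median centring or with weights per array or group, 2 with trended moderation or without arrays 4 and 6, and 1 to 5 with 1 array left out. Over all genes the lower calls numbered 2543, against 5330 with centring, 3911 with weights per array and 3278 with weights per group. They numbered 2148 without dim genes, 2475 with trended moderation, 2461 without arrays 4 and 6 and 1840 to 2903 with 1 array left out. Without arrays 4 and 6, 5 listed genes were higher in Bank1/Pax5 leukemic marrow than in WT precursors, against 0. Of all genes 1473 were then higher, against 1356. In Pax5 leukemic marrow against WT precursors the count of higher genes was 0 and became 5 with weights per array or with the 2 groups alone, 2 with weights per group, 4 without arrays 4 and 6, and 0 to 2 with 1 array left out. Over all genes the higher calls numbered 1901, and 3293 with weights per array, 2614 with the 2 groups alone and 2994 with weights per group. They numbered 2355 without arrays 4 and 6 and 1322 to 2241 with 1 array left out. The count of lower genes was 2 and became 4 with weights per array, with the 2 groups alone or without arrays 4 and 6. It was 1 to 3 with 1 array left out. Over all genes the lower calls numbered 2754, against 4811 with weights per array and 3207 with the 2 groups alone. They numbered 3164 without arrays 4 and 6 and 1750 to 3533 with 1 array left out. Between the leukemias no listed gene was called, against 2 lower without dim genes and 1 higher without arrays 4 and 6. With 1 array left out, 0 to 2 were lower. Of all genes 1053 were lower without dim genes, 301 were higher without arrays 4 and 6, and 548 to 1279 were lower with 1 array left out. Without arrays 4 and 6, which were removed for low levels of these same genes, 3 log2 differences turned their sign and were called: Rrm2 at 0.64 between the leukemias (-0.0076 with all arrays), and Rpa2 at 0.45 (-0.05) and Tyms at 0.45 (-0.10) in Bank1/Pax5 leukemic marrow against WT precursors. The cause was not tested.

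Scaling moved the split over all genes. In Bank1/Pax5 leukemic marrow against WT precursors it was 1356 higher and 2543 lower, 1086 and 5330 with median centring, and 2034 and 2012 with cyclic loess. Between the leukemias it was 340 higher and 996 lower, 167 and 1185 with centring, and 451 and 588 with cyclic loess. Centring shifted the median of all genes to -0.13 in Bank1/Pax5 leukemic marrow against WT precursors, and that of the 42 genes to -0.56. Arrays 4 and 6 stayed lowest, at 8.33 and 8.77 with cyclic loess and at 7.99 and 8.69 with centring.

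The replicate numbers did not pair the samples: correlations of same-numbered deviations ran from -0.134 to 0.321 for Bank1/Pax5 leukemic marrow with WT precursors, from -0.284 to 0.203 for Pax5 leukemic marrow with WT precursors and from -0.379 to 0.122 between the leukemias. The block fit used only the 2 groups compared and the replicate numbers they share. Arrays 5 and 6 of each leukemia were thus left out against WT precursors. It called 1524 genes in Bank1/Pax5 leukemic marrow against WT precursors, 3214 in Pax5 leukemic marrow against WT precursors and 0 between the leukemias. The fit over all arrays called 3899, 4655 and 1336, and the 2 groups alone without a block 3619, 5821 and 446. Against WT precursors the block and the arrays left out cannot be told apart. Of the listed genes the block then gave 0 higher and 1 lower in Bank1/Pax5 leukemic marrow against WT precursors. It gave 2 higher and 3 lower in Pax5 leukemic marrow against WT precursors, and none between the leukemias. Over all genes these counts were 537 higher and 987 lower, 1565 higher and 1649 lower, and none. Promoters with the E2F motif numbered 15 genes, and 21 with the shorter core of TTTCCCGC or TTTGGCGC.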
